A study of Mus musculus with 8 samples.

Results

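The genes described here are 9 transcripts that led a neutrophil cluster of mouse lung tumors: Siglec5, Ffar2, Entpd3, Rab15, Tarm1, Gpr84, Il23a, Dtx4 and Camkk1. They were chosen by their high level in one of the neutrophil clusters of these same cells, so their specificity to neutrophils, their co-detection, their relation to Retnlg and Hdc and their level per library were used in the choice and are given as a description. Calls of these genes in the fit over all genes are printed only beside the share of all genes called, and are no test of them. They are 9 of 27923 genes listed in the UMI tables, of which 26465 had at least 1 UMI (unique molecular identifier, a tag that counts 1 captured transcript once). Siglec5 is the older symbol of mouse Siglecf, which encodes Siglec-F, and the tables listed the related Siglece as a row of its own.

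Cells came from 2 KP lung tumors, 1 from each of 2 mice, of which the study says 1 was male and 1 female. All groups share the KP model, in which adenovirus-Cre delivered into the trachea recombines the engineered alleles, so that tumors arise mainly from alveolar type II cells. Live tissue was stained with calcein NVOC, a caged dye that becomes fluorescent where it is illuminated; cells of the Healthy/Tumor Border were photoactivated and sorted as calcein NVOC+, whereas the Whole Tumor cells were not photoactivated, and both were profiled by Seq-Well, which captures single cells with barcoded beads in microwells. Each tumor gave 1 border library and 3 Whole Tumor arrays, which are technical replicates of 1 cell suspension. Region therefore cannot be told apart from photoactivation and sorting, nor tumor from mouse and its sex. The p-values measure only the spread between arrays. The barcode names in the tables carried the number of the other tumor, and the tumor was taken from the sample labels. By the labels the border and whole libraries held 686 and 1634 barcodes in Tumor 1 and 534 and 1489 in Tumor 2. The study gives these same group sizes for the tumors so numbered.

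Neutrophils are short-lived phagocytes that leave the bone marrow with their granules already made. In mouse lung adenocarcinoma a longer-lived population carries Siglec-F, a lectin that binds sialic acid, signals through inhibitory motifs and is otherwise typical of eosinophils and alveolar macrophages. Retnlg, which encodes a secreted resistin-like protein, and Hdc, the enzyme that makes histamine, are typical of mature neutrophils in blood. The 9 genes cover several functions: Siglec-F, the activating receptor Tarm1, the short-chain fatty acid receptor Ffar2 and the medium-chain fatty acid receptor Gpr84 sit at the cell surface, Entpd3 degrades extracellular nucleotides, Il23a is the subunit that defines the cytokine IL-23, Rab15 is a GTPase of endosome recycling, Dtx4 is a Deltex-type ubiquitin ligase and Camkk1 is a kinase that activates calmodulin-dependent kinases.

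On GRCm38 (mm10) 3 of the 9 genes lie on chromosome 7. Siglecf spans chr7:43351341-43359531 on the plus strand, Ffar2 chr7:30818348-30823775 on the minus strand and Tarm1 chr7:3486500-3502624 on the minus strand. Entpd3 spans chr9:120539818-120568327 (plus), Rab15 chr12:76797960-76822908 (minus) and Gpr84 chr15:103308235-103310612 (minus). Il23a spans chr10:128296139-128298752 (minus), Dtx4 chr19:12466338-12501454 (minus) and Camkk1 chr11:73019008-73042073 (plus). Rab15 overlaps Fntb on the other strand, Gpr84 overlaps the antisense gene Gm49482 and Tarm1 overlaps Gm44165, and whether the counting used strand is not given in the sources used here, so reads of such pairs cannot be told apart. Fntb had 0 to 2 UMIs per library in neutrophil barcodes.

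RefSeq promoters (GRCm38.p6, 250 bases before to 50 bases after a start, 300 in all) were found for 7 of the 9 genes, with 13 starts. Those of Siglecf, Ffar2 (its most upstream start) and Tarm1 are shown, because these 3 genes of chromosome 7 encode receptors at the cell surface. Capitals mark matches on either strand to letters often bound in myeloid cells: GAGGAA (PU.1-type), TGANTCA (AP-1), TTGCNNAA (C/EBP) and ACGTG (core of the hypoxia response element).
Siglecf promoter, chr7:43351091-43351390, plus strand: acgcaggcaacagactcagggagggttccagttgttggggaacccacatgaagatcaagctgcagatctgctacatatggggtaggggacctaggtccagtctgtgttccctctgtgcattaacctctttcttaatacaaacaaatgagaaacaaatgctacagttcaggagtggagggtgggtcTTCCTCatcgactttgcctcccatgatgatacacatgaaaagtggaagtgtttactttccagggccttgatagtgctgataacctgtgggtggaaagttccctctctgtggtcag
Ffar2 promoter, chr7:30823726-30824025, minus strand: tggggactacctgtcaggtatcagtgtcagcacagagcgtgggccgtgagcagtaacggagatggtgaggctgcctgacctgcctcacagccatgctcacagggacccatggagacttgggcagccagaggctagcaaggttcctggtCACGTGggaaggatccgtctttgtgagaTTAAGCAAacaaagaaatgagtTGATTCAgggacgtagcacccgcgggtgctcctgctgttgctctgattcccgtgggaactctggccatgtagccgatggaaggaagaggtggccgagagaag
Tarm1 promoter, chr7:3502575-3502874, minus strand: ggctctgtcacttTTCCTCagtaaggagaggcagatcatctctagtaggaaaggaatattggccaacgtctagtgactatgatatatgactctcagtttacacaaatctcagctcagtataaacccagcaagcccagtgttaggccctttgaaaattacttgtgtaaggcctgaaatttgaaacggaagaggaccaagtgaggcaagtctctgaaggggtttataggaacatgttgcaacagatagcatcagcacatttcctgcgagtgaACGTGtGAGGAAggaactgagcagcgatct
The PU.1-type letters were in a promoter of 4 of the 7 genes (Siglecf, Ffar2, Tarm1 and Rab15) and in 28.3% of all 32851 RefSeq promoters. The AP-1 letters were in promoters of 3 genes (Entpd3, Ffar2 and Rab15) against 7.81% of all promoters, those of C/EBP in 2 (Entpd3 and Ffar2) against 10.8%, and the hypoxia core in 4 (Entpd3, Ffar2, Tarm1 and Camkk1) against 19.6%. Ffar2 and Rab15 have 4 starts each, which gives them more chances of a match. Counted by single promoter, like the shares of all promoters, the PU.1-type letters were in 5 of the 13. Those of AP-1 were in 3, those of C/EBP in 5, with every Ffar2 start among them, and the hypoxia core in 4. These are matches of letters and not measured binding.

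Of 4343 deposited barcodes, 3894 had at least 200 genes and 1677 of these were neutrophil barcodes, defined as holding at least 2 UMIs of Csf3r, G0s2, Clec4d and Cxcr2 together. They made up 25.7% to 63.4% of the barcodes of a library, with 94466 to 1252408 UMIs in them per library, and their median depth was 2263 to 2817 UMIs except in Whole Tumor 2 replicate 2, where it was 618. Levels are given as CPM, the gene's UMIs per 1000000 UMIs of the neutrophil barcodes of a library (or of another class where one is named). UMI counts, and not reads, underlie them, and their intervals cover counting error only. In all, 10 barcode sequences occurred in more than 1 library, in 56 columns of the tables of which 11 were neutrophil barcodes, and leaving these out changed no count of called genes by over 1.5 times.

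RNA of macrophages moved with the groups in these neutrophil barcodes. Summed markers of C1q macrophages (C1qa, C1qb and C1qc), in UMIs per 10000, were all at 0 in Healthy/Tumor Border 1, at 0.877 to 1.68 in Whole Tumor 1, at 30.0 in Healthy/Tumor Border 2 and at 1.47 to 3.83 in Whole Tumor 2. The share of neutrophil barcodes with at least 2 UMIs of another class's markers was 4.58% in Healthy/Tumor Border 1, 21.5% to 33.3% in Whole Tumor 1, 37.7% in Healthy/Tumor Border 2 and 3.97% to 16.8% in Whole Tumor 2. The comparisons between the tumors and between border and whole are therefore also given without these 295 barcodes and those called doublets by Scrublet, which left 81 of 130 neutrophil barcodes in Healthy/Tumor Border 2 and 370 of 393 in Healthy/Tumor Border 1.

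The first comparison was between the tumors, within the Whole Tumor arrays. All 9 genes had a higher mean level in Whole Tumor 1 than in Whole Tumor 2, and for 8 of them every array of Whole Tumor 1 lay above every array of Whole Tumor 2, against 52.5% of the 7688 genes tested on the same CPM scale. The levels were used in the choice, and nothing is read from this count. The exception was Il23a, whose arrays overlapped. Summed over the 9 genes, the level was 2018 ± 194 CPM (SD, n = 3 arrays) in Whole Tumor 1 and 305 ± 37.5 in Whole Tumor 2.

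**Figure D1:**
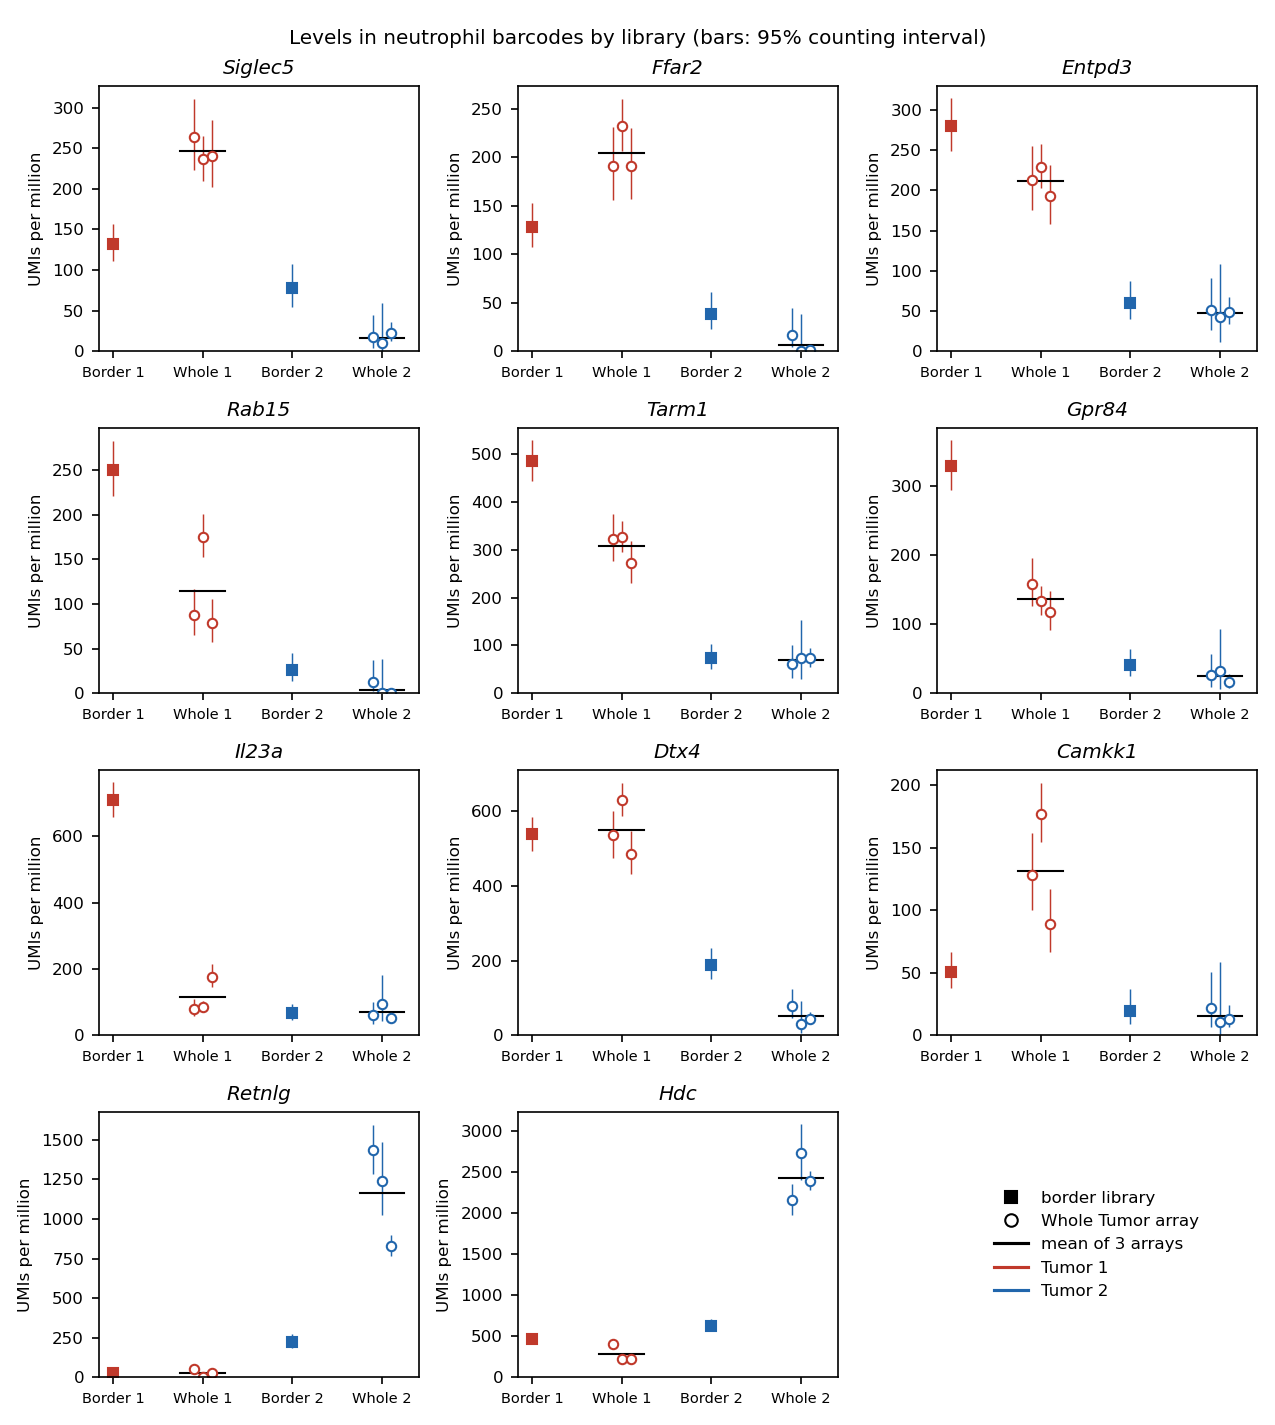
Level of each of the 9 genes, and of Retnlg and Hdc, in neutrophil barcodes of each library, in CPM on a linear axis from 0, with 95% counting intervals as bars and the mean of the 3 arrays as a horizontal line. Most of the 9 genes are high in the Tumor 1 libraries and low in the Tumor 2 libraries, Il23a stands out in Healthy/Tumor Border 1 at 709, and Retnlg and Hdc are highest in the Whole Tumor 2 arrays.

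Among the receptors, Siglec5 was at 264, 236 and 241 CPM in the 3 Whole Tumor 1 arrays and at 17.3, 10.6 and 22.6 in the Whole Tumor 2 arrays. Ffar2 was at 191, 232 and 191 in Whole Tumor 1 and at 17.3, 0 and 1.33 in Whole Tumor 2, where it rested on 4, 0 and 1 UMIs. The ranges were far apart for both genes, and the 0 of Whole Tumor 2 replicate 2 allows a level of up to 31.8. Gpr84 was at 158, 133 and 117 in Whole Tumor 1 and at 26.0, 31.8 and 16.0 in Whole Tumor 2. Tarm1 was at 323, 326 and 272 in Whole Tumor 1 and at 60.6, 74.1 and 73.1 in Whole Tumor 2. Again no array of one tumor reached the range of the other.

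Entpd3 was at 213, 229 and 193 CPM in the Whole Tumor 1 arrays and at 51.9, 42.3 and 49.2 in those of Whole Tumor 2. Dtx4 was at 536, 632 and 487 in Whole Tumor 1 and at 77.9, 31.8 and 45.2 in Whole Tumor 2. Camkk1 was at 128, 177 and 89.4 in Whole Tumor 1 and at 21.6, 10.6 and 13.3 in Whole Tumor 2. The enzymes thus followed the receptors, with Camkk1 the lowest of the 3 in counts. Rab15 was at 88.0, 176 and 79.1 in Whole Tumor 1 and at 13, 0 and 0 in Whole Tumor 2, where it had 3 UMIs in all. Il23a was at 80.7, 87.0 and 177 in Whole Tumor 1 and at 60.6, 95.3 and 51.9 in Whole Tumor 2, so Whole Tumor 2 replicate 2 lay above the lower arrays of Whole Tumor 1.

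As ratios of the summed counts, Siglec5 was 11.9-fold higher in Whole Tumor 1 (95% counting interval 7.81 to 19.2), Dtx4 11.2-fold (8.59 to 15.01), Camkk1 9.74-fold (5.91 to 17.2) and Gpr84 6.92-fold (4.45 to 11.3). Tarm1 was 4.42-fold higher (3.49 to 5.68) and Entpd3 4.40-fold (3.31 to 5.96). For Ffar2 (45.8-fold, 19.5 to 142) and Rab15 (47.4-fold, 16.1 to 231) the few UMIs of Whole Tumor 2 left wide intervals. Il23a differed least, at 1.87-fold (1.41 to 2.51). Its 5 highest barcodes held 47.7% to 68.0% of its UMIs in each Whole Tumor 1 array, where 19 to 28 neutrophil barcodes had it. In Healthy/Tumor Border 1 the 5 highest held 18.4%, but there 142 barcodes had it, so these shares are not alike in base. The order among the genes from Siglec5 to Gpr84 is not resolved by these intervals. Without the barcodes that carried other classes' markers, the ratio of the mean levels of the arrays went from 10.7 to 18.9 for Dtx4, from 5.54 to 8.82 for Gpr84 and from 32.9 to 51.4 for Ffar2, and for Il23a, from 1.66 to 2.33, the highest Whole Tumor 2 array, at 96.1 CPM, then lay below every Whole Tumor 1 array.

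In the model across all genes (edgeR quasi-likelihood test on UMIs summed per library, Benjamini-Hochberg adjusted p under 0.05), 8 of the 9 genes were called lower in Whole Tumor 2, against 14.8% of the 7688 genes tested, and none was called higher, against 19.0% of all genes. The choice of the genes used this contrast, so nothing is read from the count. All 9 passed the filter on low counts; Ffar2 and Rab15 passed it through Tumor 1, where they are high. The median log2 change of the 9 genes was -2.42 and that of all genes tested -0.19. Among the 8 genes called, the log2 change ranged from -4.66 ± 0.49 (SE) for Ffar2 to -1.38 ± 0.27 for Entpd3, and Il23a, at -0.18 ± 0.32, was not called. The same 8 genes were called under every alternative run for this contrast, and Il23a was called too with library size alone as the scaling, which moved the median of all genes to -0.93 and the higher share of called genes from 56.3% to 17.4%.

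Retnlg and Hdc ran the other way. Retnlg was at 51.4, 5.59 and 29.2 CPM in Whole Tumor 1 and at 1432, 1239 and 829.7 in Whole Tumor 2, and Hdc at 411, 223 and 229 against 2159, 2731 and 2396. Neither gene's ranges overlapped between the tumors. With the barcodes that carried other classes' markers left out, Retnlg was at 51.2 ± 46.1 (SD, n = 3) in Whole Tumor 1 and 1316 ± 105 in Whole Tumor 2, and Hdc at 480 ± 212 and 3024 ± 469. Of 15 genes typical of mature neutrophils, a list that includes Retnlg and Hdc, 14 were tested. Of these 13 rose in Whole Tumor 2, against 19.0% of the 7688 genes tested, and none was lower, against 14.8%. The list also holds Cxcr2, whose UMIs helped to define the neutrophil barcodes; leaving it out, 12 of 13 rose. S100a9, a calcium-binding alarmin, rose by 2.58 ± 0.19 (log2 ± SE, adjusted p = 1.24e-12 by edgeR), S100a8, its partner, by 3.04 ± 0.22 (adjusted p = 1.38e-12), and the matrix metalloproteinase Mmp9 did not pass (-0.22 ± 0.21, adjusted p = 0.438). With library size alone, and without barcodes that carried other classes' markers, Mmp9 was called lower. The lists of other genes were chosen with earlier results of these data known and are no independent evidence.

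Of 16 genes reported for Siglec-F-high neutrophils of lung tumors, none of them among the 9, 8 rose and 5 fell in Whole Tumor 2. Of all genes tested 19.0% were called higher and 14.8% lower, and the median of the list was 0.29. The leukotriene synthase Ltc4s fell by 3.10 ± 0.43 and the tetraspanin Cd63 by 1.24 ± 0.22 (adjusted p = 8.29e-07 and 4.75e-05, edgeR), in the direction of the 9 genes. The ferritin chain Fth1 rose by 1.17 ± 0.17 and the chemokine Ccl3 by 1.93 ± 0.21 (adjusted p = 2.61e-06 and 8.26e-09, edgeR), in the direction of Retnlg. The list's split turned to 5 higher and 8 lower with library size alone, against 774 and 3677 of the 7688 genes tested. Without the barcodes that carried other classes' markers it turned to 7 and 7, against 1322 and 1576 of 5825. The members of the list thus did not move one way between the tumors.

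The second comparison was between the border and the whole of Tumor 1. Il23a was at 709 CPM in Healthy/Tumor Border 1, above the 80.7 to 177 of the Whole Tumor 1 arrays, and it was found in 36.1% of the neutrophil barcodes of the border against 8.46% to 13.1% of those of the arrays. Gpr84 was at 328 against 117 to 158, and Tarm1 at 484 against 272 to 326. Rab15 was at 250.4 against 79.1 to 176, and Entpd3 at 279.9 against 193 to 229. These 5 genes lay above all 3 arrays, against 14.3% of the genes tested.

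Siglec5, Ffar2 and Camkk1 lay below all 3 arrays, against 64.1% of the genes tested. Siglec5 was at 133 CPM in the border, Ffar2 at 129 and Camkk1 at 51.1, against lowest arrays of 236, 191 and 89.4. Dtx4, at 539, lay within its array range.

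Scaling matters for these genes. The composition of the libraries differed, and trimmed-mean scaling (TMM) moved border levels of Tumor 1 up against those of the arrays: with library size alone the median log2 change of all genes was -0.69, with TMM -0.11. On the TMM scale the log2 change was 3.22 ± 0.29 (SE) for Il23a, 1.85 ± 0.26 for Gpr84, 1.65 ± 0.34 for Rab15, 1.23 ± 0.25 for Tarm1 and 0.97 ± 0.26 for Entpd3. It was 0.54 ± 0.28 for Dtx4, -0.10 ± 0.32 for Ffar2, -0.32 ± 0.29 for Siglec5 and -0.82 ± 0.37 for Camkk1. In this contrast 5 of the 9 genes were called higher, against 9.86% of the 7688 genes tested, and 0 lower, against 6.50%; the contrast was used in the choice and nothing is read from the counts. With library size alone Il23a, Gpr84, Rab15 and Tarm1 were called higher and Siglec5 and Camkk1 lower (log2 scale), and the share of called genes that were higher went from 60.3% to 15.4% over all genes.

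The calls of Entpd3 and Tarm1 did not hold without the barcodes that carried other classes' markers. Without these barcodes Entpd3 was at 288 CPM in the border against 325 ± 28.0 (SD, n = 3) in the arrays, and Tarm1 at 482 against 466 ± 93.8. Il23a, at 732 against 182 ± 93.4, and Gpr84, at 349 against 212 ± 49.1, stayed above every array and were called. Camkk1, at 49.7 against 184 ± 70.1, was called lower. Rab15 was at 264, within the arrays' 129 to 265, and was still called. Siglec5, at 133, Ffar2, at 124, and Dtx4, at 563, lay below every array, and none of them was called. Their lowest arrays were at 310, 276 and 709, and their log2 changes were -0.80, -0.78 and 0.06. With all neutrophil barcodes, Entpd3 and Rab15 were not called in DESeq2's test, nor Entpd3 with no filter on low counts. The part of macrophage RNA in these differences was not tested beyond leaving out such barcodes.

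Other genes of Siglec-F-high neutrophils were higher in Healthy/Tumor Border 1. Of the 16 on the list, 11 rose in the border, against 9.86% of all genes tested, and none fell, against 6.50%. The median of the list was 1.46. The cytokine Tnf rose by 4.38 ± 0.26, the chemokines Ccl4 by 3.43 ± 0.25 and Ccl3 by 3.37 ± 0.26, and the cytokine Il1a by 2.80 ± 0.30 (adjusted p from 1.68e-13 to 3.28e-08, edgeR). Ltc4s did not pass (-0.60 ± 0.34, adjusted p = 0.243), like Siglec5 and Ffar2. Of the mature neutrophil list 6 of 14 rose, among them Hdc, by 1.28 ± 0.28, and the protease gene Asprv1, by 3.42 ± 0.36 (adjusted p = 0.0014 and 2.22e-08, edgeR; Hdc was called under 13 of 17 settings), while Retnlg did not pass (0.74 ± 0.59, adjusted p = 0.428). With library size alone 2 genes of each list were called lower, against 1834 of the 7688 genes tested. Once the barcodes that carried other classes' markers were left out, 10 of the 16 rose, Tnf, Ccl4, Ccl3 and Il1a among them. Of the mature list 4 of 13 then rose, with Cxcr2 lower. Among all 5825 genes then tested, 426 were called higher and 108 lower. Hdc was then at 482 CPM in the border against 339 to 724 in the arrays, with a log2 change of 0.58 ± 0.29, and was not called (adjusted p = 0.23, edgeR).

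At the border of Tumor 2, Siglec5, Dtx4 and Ffar2 were above the arrays, which they were not in Tumor 1, and Rab15, Gpr84 and Entpd3 were above them in both tumors. Siglec5 was at 77.6 CPM in Healthy/Tumor Border 2 against 10.6 to 22.6 in the Whole Tumor 2 arrays. Dtx4 was at 189.7 against 31.8 to 77.9, and Ffar2 at 38.8 against 0 to 17.3. Rab15 was at 25.9 against 0 to 13, Gpr84 at 41.0 against 16.0 to 31.8, and Entpd3 at 60.4 against 42.3 to 51.9. Tarm1 (73.3), Il23a (66.8) and Camkk1 (19.4) lay within the range of their arrays. When barcodes that carried other classes' markers were left out, Tarm1 was at 172 CPM against 75.2 to 88.4 and Il23a at 159 against 68.3 to 96.1, both above every array, and their log2 changes turned from -0.41 to 0.70 and from -0.33 to 0.79, neither called. All 6 genes named first lay above every array of their tumor, against 54.3% of the genes tested, and none of the 9 lay below every array, against 15.2%. None of the 6 reached the lowest Whole Tumor 1 array.

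The counts behind these levels were small. In the 3 arrays together Siglec5 had 22 UMIs, Ffar2 5 and Rab15 3, and in the border 36, 18 and 12. The ratio of the summed counts was 3.80 for Siglec5 (95% counting interval 2.18 to 6.78), 8.36 for Ffar2 (2.99 to 28.8) and 9.29 for Rab15 (2.51 to 51.3). For Dtx4, with 55 UMIs in the arrays and 88 in the border, it was 3.72 (2.62 to 5.31), and for Gpr84 2.102 (1.07 to 4.11). The intervals of Entpd3 (0.748 to 1.98), Tarm1 (0.672 to 1.58), Il23a (0.729 to 1.82) and Camkk1 (0.509 to 3.14) include 1.

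In the model, 3 of the 9 genes were called higher in Healthy/Tumor Border 2, against 4.15% of all genes tested, and 0 lower, against 7.45%; again the choice used the contrast. The log2 changes were 1.46 ± 0.45 for Siglec5, 2.49 ± 0.76 for Ffar2 and 1.36 ± 0.37 for Dtx4. Rab15 had the largest estimate, 2.63 ± 1.05, and was not called, and Entpd3, above the arrays in CPM, was at -0.19 ± 0.41. Without Whole Tumor 2 replicate 3, which held most of the arrays' UMIs, only Siglec5 of the 9 was called, and among barcodes with at least 500 genes only Ffar2. Siglec5 was also not called without Whole Tumor 2 replicate 1, where Rab15 was, nor with no filter on low counts. Without the barcodes that carried other classes' markers Rab15 was called too. Siglec5 was then at 185 CPM in the border against 16.5 ± 4.76 (SD, n = 3). The log2 changes were then 3.08 for Siglec5, 3.38 for Ffar2, 2.62 for Dtx4 and 3.9 for Rab15. That of Entpd3 turned to 1.08 and was not called. With library size alone the median log2 change of all genes went from 0.11 to 0.60 and the higher share of called genes from 35.8% to 78.9%; with RLE size factors in edgeR that share was 46.3% and in DESeq2's own test 29.7%.

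The mature neutrophil genes were mostly lower at the border of Tumor 2, with 12 of 14 called lower, against 7.45% of all genes tested. None was called higher, against 4.15%, and without Cxcr2 11 of 13 were lower. Retnlg, at 226 CPM in Healthy/Tumor Border 2 against 829.7 to 1432, fell by 2.80 ± 0.48 (adjusted p = 0.000187, edgeR), and Hdc, at 629.6 against 2159 to 2731, by 2.39 ± 0.34 (adjusted p = 1.8e-05). With barcodes that carried other classes' markers left out, both falls were smaller: Retnlg was at 595 CPM against 1200.1 to 1406 and fell by 1.42 ± 0.34, and Hdc was at 1449 against 2532 to 3466 and fell by 1.35 ± 0.32 (adjusted p = 0.00171 and 0.00177, edgeR). Of the mature list 8 of 13 were then lower, or 7 of 12 without Cxcr2, against 215 of the 5825 genes then tested. Of the Siglec-F-high list 2 of 16 rose and 5 fell. Ltc4s rose by 3.29 ± 0.51 (adjusted p = 5.71e-05, edgeR), as Siglec5 did, and Fth1 fell by 1.01 ± 0.26 (adjusted p = 0.00905), as Retnlg did. With library size alone the same list gave 6 higher and 1 lower, against 1142 and 305 of the 7688 genes tested. After barcodes that carried other classes' markers were left out, it gave 4 higher and 1 lower, against 206 and 215 of 5825. Neither Ltc4s (2.34 ± 0.80, adjusted p = 0.0506) nor Fth1 (-0.36 ± 0.30, adjusted p = 0.54, edgeR) was then called.

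The difference between the border effects of the 2 tumors was fitted as its own term. Siglec5 (1.78 ± 0.53, log2 ± SE, Tumor 2 minus Tumor 1) and Ffar2 (2.60 ± 0.83) were called higher, against 9.90% of all genes, and Tarm1 (-1.64 ± 0.46) and Il23a (-3.56 ± 0.56) lower, against 11.8%. The levels of these libraries were used in the choice of the genes, so the term is a description and nothing is read from the counts. On the scale of the fit, the border effect of Siglec5 was -0.32 ± 0.29 in Tumor 1 and 1.46 ± 0.45 in Tumor 2, and that of Ffar2 -0.10 ± 0.32 and 2.49 ± 0.76. The border effect of Il23a was 3.22 ± 0.29 in Tumor 1 and -0.33 ± 0.46 in Tumor 2, and that of Tarm1 1.23 ± 0.25 and -0.41 ± 0.38. The median of the 9 genes was 0.70 and that of all genes 0.23, which library size alone moved to 1.301, with the higher share of called genes going from 45.6% to 87.3%, to 55.0% with RLE size factors in edgeR and to 43.1% in DESeq2's own test. Without the barcodes that carried other classes' markers Tarm1 was at 0.10 and not called. Dtx4 then went from 0.82 to 2.56 and Rab15 from 0.98 to 2.84, and both were called higher. Siglec5 went to 3.89, Ffar2 to 4.16 and Il23a to -1.79, each still called. Tarm1 was also not called by DESeq2, with library size alone, with no filter on low counts, among barcodes with at least 500 genes or without Clec4d among the markers. Siglec5 was not called with no filter or among barcodes with at least 500 genes, and Ffar2 was not called without Whole Tumor 2 replicate 3. Il23a was called under each of these settings.

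Specificity to neutrophils differed between the tumors for most of the 9 genes. In Tumor 1, neutrophil barcodes held 64.1% of all UMIs and 80.0% (Rab15) to 93.0% (Tarm1) of the UMIs of each of the 9 genes. In Tumor 2 they held 35.3% of all UMIs, and 87.7% of those of Il23a, 85.3% of Entpd3 and 79.1% of Tarm1. For Siglec5 the share in Tumor 2 was 33.7%, for Rab15 41.7%, for Dtx4 42.8%, for Ffar2 48.9%, for Gpr84 52.6% and for Camkk1 56.8%. Il23a, Entpd3 and Tarm1 thus kept most of their UMIs in neutrophil barcodes in both tumors. Siglec5 in Tumor 2 had no larger a share there than all UMIs. The ratio of the level in neutrophil barcodes to that in all others went from 3.32 in Tumor 1 to 10.6 in Tumor 2 for Entpd3. For Il23a this ratio went from 3.26 to 13.1, and for each other gene it was lower in Tumor 2.

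**Figure D2:**
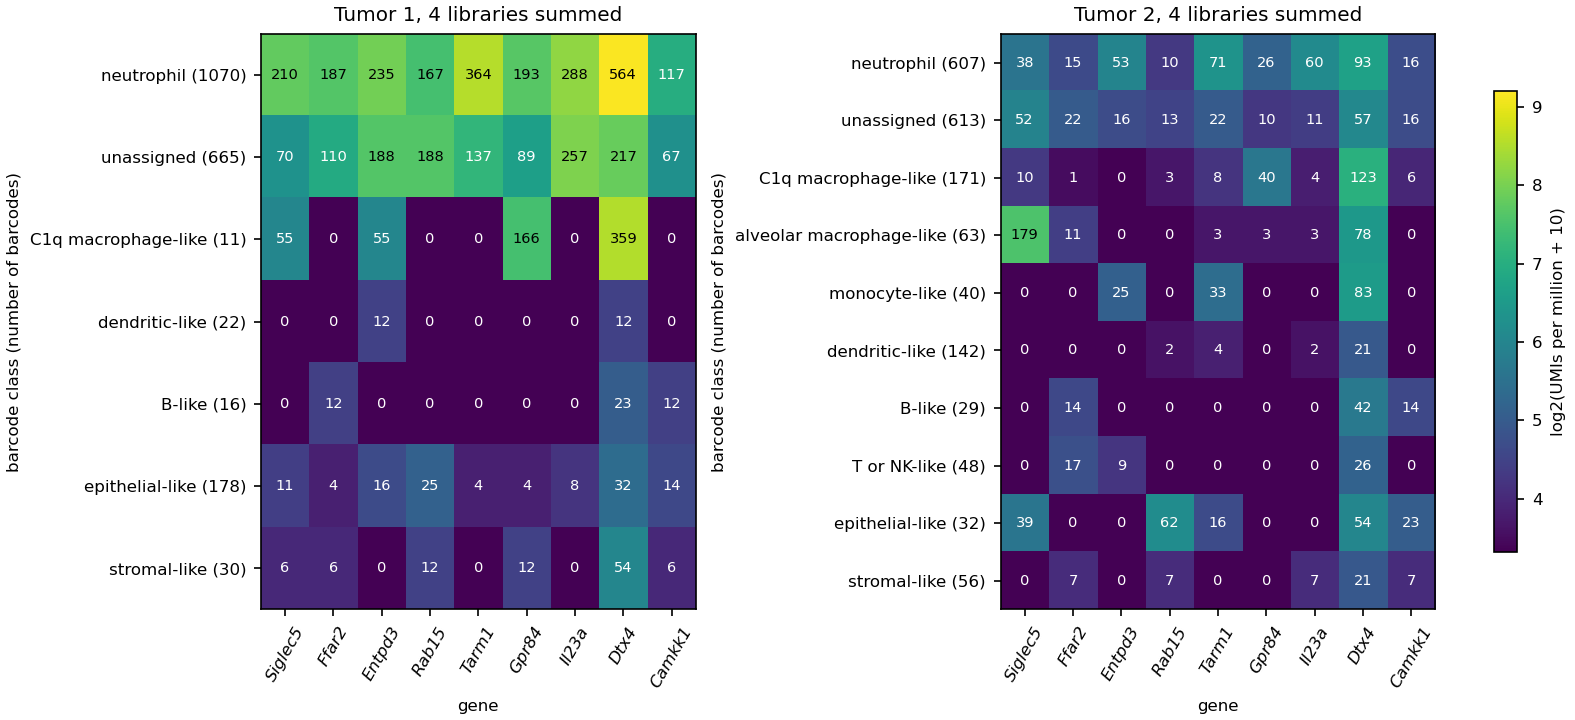
Level of each of the 9 genes by barcode class and tumor, printed in CPM and colored on a log2 scale after adding 10, with the 4 libraries of a tumor summed; rows give the classes shown and their numbers of barcodes. In Tumor 1 neutrophil barcodes are highest for 8 of the 9 genes and unassigned barcodes for Rab15, and in Tumor 2 Siglec5 is highest in alveolar macrophage-like barcodes at 179.

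Per library, the log2 ratio of the level in neutrophil barcodes to that in all other barcodes (with 10 CPM added to each) was above 0 in all 8 libraries for Tarm1 (2.34 ± 0.95, mean ± SD over libraries), Entpd3 (1.72 ± 0.51), Gpr84 (1.43 ± 0.69) and Camkk1 (1.07 ± 0.71). It was above 0 in 7 libraries for Il23a (1.81 ± 1.34) and Dtx4 (1.15 ± 1.27) and in 6 for Ffar2 (0.93 ± 1.47) and Rab15 (0.28 ± 1.11). Siglec5 (0.97 ± 1.99) was above 0 in 5 libraries and below 0 in all 3 Whole Tumor 2 arrays. The value of Il23a below 0, in Whole Tumor 1 replicate 1, came with 52 of its 79 UMIs outside neutrophil barcodes in 1 barcode.

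Outside neutrophils, several genes had a second source. Alveolar macrophage-like barcodes of Tumor 2 (63, from Ear1, Ear2 and related markers) held Siglec5 at 179 CPM (95% interval 138 to 228) from 64 UMIs, against 37.6 in neutrophil barcodes of that tumor, and Entpd3, Rab15 and Camkk1 at 0 UMIs, which allows up to 8.38. Siglec-F is an established marker of alveolar macrophages. C1q macrophage-like barcodes of Tumor 2 (171) held Dtx4 at 122.6 (98.3 to 151) and Gpr84 at 40.4 (27.1 to 58.0), though 22 of the 28 UMIs of Gpr84 outside neutrophil barcodes of Healthy/Tumor Border 2 were in 1 barcode. Epithelial-like barcodes held Rab15 at 25.4 (15.04 to 40.1) in Tumor 1 and 62.2 (26.9 to 122.6) in Tumor 2, and Il23a at 8.46 and 0. Dendritic-like barcodes of Tumor 2 (142) had 0 UMIs of Siglec5, Ffar2, Entpd3, Gpr84 and Camkk1, which allows up to 6.42, and Dtx4 at 21.4 (10.3 to 39.4).

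Barcodes assigned to no class were shallow and also held the 9 genes in Tumor 1. The 665 such barcodes of Tumor 1, with a median of 482 UMIs, held Il23a at 257 CPM, Dtx4 at 217, Rab15 at 188 and Entpd3 at 188. In Tumor 2 the 613 unassigned barcodes held them at 11.1, 57.1, 12.7 and 15.9, with a median of 603 UMIs. Just outside the cut, barcodes with 1 neutrophil marker UMI had the 9 genes at 1456 CPM in Tumor 1, against 1958 at exactly 2 and 2361 at 3 or more, and 329.6 at 0. In Tumor 2 the same bins were at 301, 253, 404 and 129.9. In Tumor 1 the level thus rose over the bins across the cut, with 189 barcodes at 1 UMI and 155 at 2, against 172 and 90 in Tumor 2.

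Markers of eosinophils and mast cells, which could also carry Siglec-F, had at least 1 UMI in 41 of the 1677 neutrophil barcodes and at least 2 in 19. Clec4d alone had made 190 barcodes neutrophil, 138 of them in Tumor 1. Without Clec4d among the markers, of the 9 genes only Gpr84 and Il23a were called at the border of Tumor 1, both higher, against 366 of the 6597 genes tested, and 8 were still called lower in Whole Tumor 2, against 1219 of them.

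Co-detection was measured after each neutrophil barcode was thinned to 1000 UMIs, which kept 1458 barcodes and left out 219 that were shallower, and kept 19 of 126 in Whole Tumor 2 replicate 2. Of 36 pairs of the 9 genes, 27 had a Mantel-Haenszel odds ratio over libraries above 1, with a median of 1.44. Gpr84 and Il23a had the highest odds ratio, in 48 barcodes against 23.1 expected (odds ratio 3.91), followed by Siglec5 and Camkk1 (29 against 13.6, 3.30) and Ffar2 and Gpr84 (32 against 17.4, 2.49). Siglec5 and Ffar2 shared 36 barcodes against 22.0 expected (2.15). Tarm1 and Dtx4 shared the most barcodes, 109 against 85.4 expected (1.69).

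**Figure D3:**
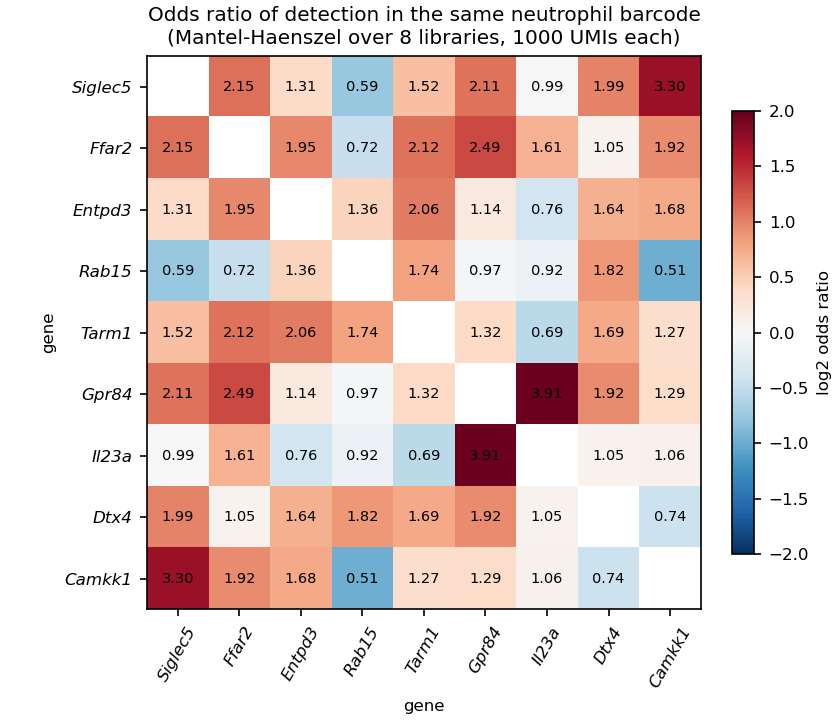
Odds ratio, on a log2 colour scale, of 2 genes having a UMI in the same neutrophil barcode, combined over the 8 libraries after thinning to 1000 UMIs. Gpr84 with Il23a is the strongest pair at 3.91, and the Rab15 row is mostly below 1.

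Rab15 and Il23a had the fewest odds ratios above 1. Rab15 was above 1 with 3 of the other 8 genes (Entpd3, Tarm1 and Dtx4) and below 1 with Siglec5 (0.589), Ffar2 (0.724) and Camkk1 (0.509, from 5 shared barcodes). Il23a was above 1 with 4 of 8 and below 1 with Tarm1 (0.688) and Entpd3 (0.764). Ffar2, Entpd3, Tarm1, Gpr84 and Dtx4 were above 1 with 7 of 8. Co-detection was used in the choice of the genes, several of these ratios lie near 1, and nothing is read from their counts.

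The number of the 9 genes with a UMI per thinned barcode differed between tumors. At least 2 were found in 49.0% of barcodes of Healthy/Tumor Border 1 and in 45.6%, 49.7% and 46.9% of those of the Whole Tumor 1 arrays. The border thus lay within the range of the arrays in this measure. In Tumor 2 the share was 18.2% in the border and 7.14%, 5.26% and 2.06% in the arrays, the second from 19 barcodes. None of the 9 genes was found in 22.0% of barcodes of Healthy/Tumor Border 1, 25% to 31.0% in Whole Tumor 1, 56.2% in Healthy/Tumor Border 2 and 75.0% to 78.9% in Whole Tumor 2.

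**Figure D4:**
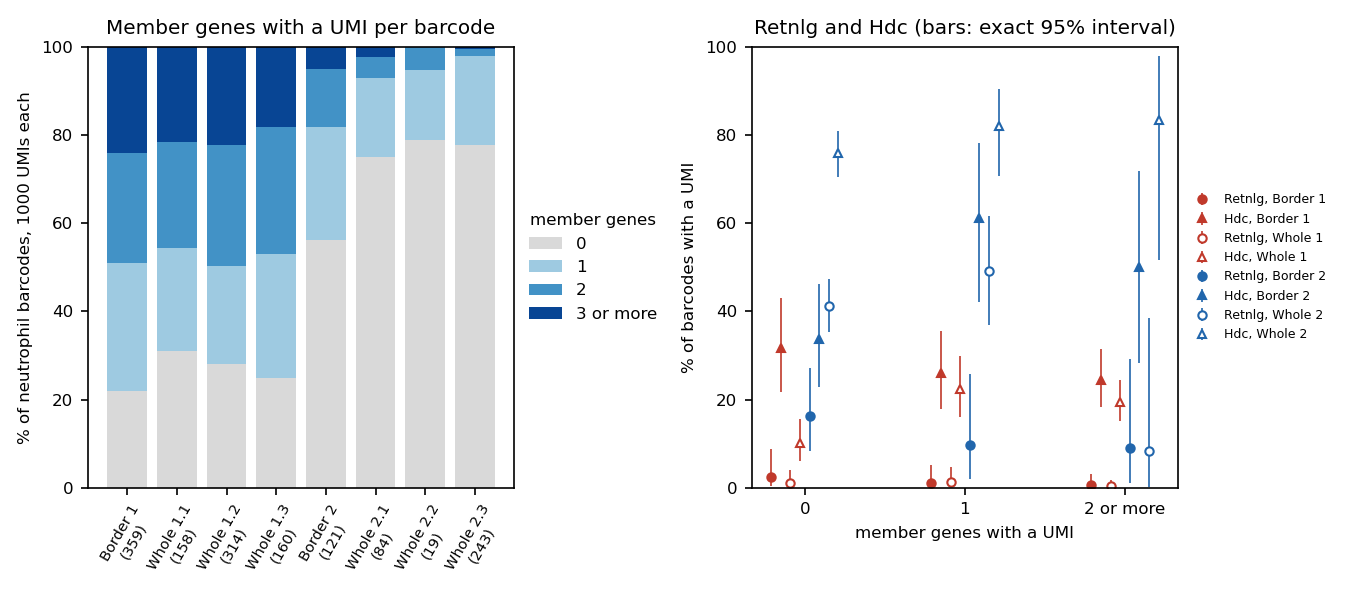
Left, share of neutrophil barcodes by number of the 9 genes with a UMI in each library, with the number of thinned barcodes in brackets. Right, share of those barcodes with a Retnlg or Hdc UMI by the number of the 9 genes, with exact 95% intervals; barcodes without any of the 9 genes are 22.0% in Healthy/Tumor Border 1 and 77.2% in Whole Tumor 2, and the Retnlg shares overlap between 0 and 1 genes in every group.

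The opposition to Retnlg and Hdc that held between tumors was weak within libraries. Across the neutrophil barcodes of a library, Pearson's r with Retnlg, on ln(UMIs per 10000 + 1), averaged from -0.0742 (Il23a) to 0.00715 (Entpd3) over libraries. Il23a was negative in 8 of 8 libraries (SD 0.0428) and Siglec5 in 7 of 8. In Tumor 2, where Retnlg is abundant, Siglec5 averaged -0.135 ± 0.0452 over 4 libraries, all negative, and Il23a -0.103 ± 0.0404. The counts are sparse, and nothing is read from values this weak.

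With Hdc, r averaged from -0.0328 (Rab15) to 0.106 (Ffar2). Ffar2 was below 0 in 1 of 7 libraries and averaged 0.151 ± 0.100 in Tumor 1. Il23a averaged 0.130 ± 0.112 and Gpr84 0.111 ± 0.101 in Tumor 1. None of the 9 genes was negative with Hdc in every library in which it could be measured.

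**Figure D5:**
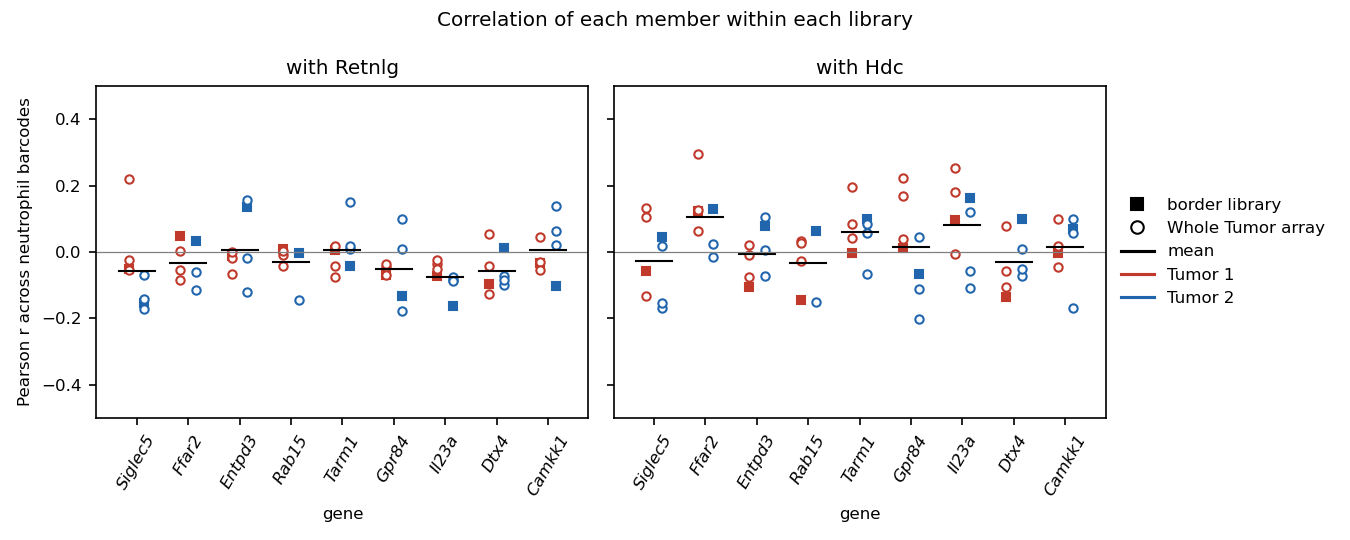
Pearson's r across neutrophil barcodes between each of the 9 genes and Retnlg (left) or Hdc (right), 1 point for each library with the mean as a line. Points scatter around 0, those of Il23a with Retnlg all lie below it, and the mean of Ffar2 with Hdc is highest at 0.106.

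Grouped by the number of the 9 genes found, the share of Whole Tumor 2 barcodes with a Retnlg UMI was 41.2% (exact 95% interval 35.2 to 47.4) at 0 genes, 49.3% (36.8 to 61.8) at 1 and 8.33% (0.211 to 38.5) at 2 or more, the last from 12 barcodes. In Healthy/Tumor Border 2 it was 16.2%, 9.68% and 9.09%. In Whole Tumor 1 it was 1.13%, 1.32% and 0.33%. The intervals overlapped between 0 and 1 genes in each group. The share with an Hdc UMI was 10.2% at 0 genes, 22.4% at 1 and 19.5% at 2 or more in Whole Tumor 1. It was 33.8%, 61.3% and 50% in Healthy/Tumor Border 2, and 76.0%, 82.1% and 83.3% in Whole Tumor 2. Barcodes without the 9 genes had the lowest Hdc share in these groups. In Healthy/Tumor Border 1 they had the highest, at 31.6% against 26.0% and 24.4%, with overlapping intervals. These shares are not given without the barcodes that carried other classes' markers. Healthy/Tumor Border 1 had an r of -0.0863 between Hdc and the summed 9 genes, against 0.123 to 0.212 in the Whole Tumor 1 arrays. This r was 0.253 in Healthy/Tumor Border 2 and -0.127 to 0.000556 in the Whole Tumor 2 arrays.

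The genes whose level most followed the summed 9 genes across neutrophil barcodes, by mean r within libraries among 5442 genes, were Il1rn, the interleukin-1 receptor antagonist (0.275 ± 0.205, mean ± SD over 8 libraries), Vav1, a signaling exchange factor (0.261 ± 0.146), and the lectin Clec4n (0.238 ± 0.072). Tnfaip2, Clec5a, AA467197, Vasp, Itgax, Acsl1 and Il1r2 followed, down to 0.216. All of these but Vav1, Itgax and Il1r2 were positive in all 8 libraries. At the other end were Marco (-0.415 over 3 libraries), Fn1 (-0.291), Apoe (-0.256) and C4b (-0.254), then Serpinb2, Cd93, Prg4, Fcna and Emp1. Marco could be measured only in the 3 Whole Tumor 1 arrays, at -0.425 to -0.408, where Fn1, Apoe and C4b were lower still. The order thus compares means over different libraries. Many of these are known from macrophages, and without barcodes that carried other classes' markers 0 of the 10 lowest and 2 of the 10 highest stayed among the 10. The r of the 10 lowest then lay between -0.117 and 0.070, with 8 negative, and that of the 10 highest between 0.107 and 0.248. Of the ranked genes Hdc was 1072nd from the top and Retnlg 777th from the bottom.

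Over 58 sums of a class within a library, covering 11 classes and 8254 genes, the genes most like the summed 9 genes were Niacr1, a receptor for niacin and ketone bodies (r = 0.788), Sdcbp (0.785), Cd300lf, an inhibitory receptor of myeloid cells (0.764), Plin2, a lipid droplet coat protein (0.764), and Cln3 (0.762). The sums share libraries and depth, and r is given as a description.

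Il12b, the subunit that joins Il23a in IL-23, had 3 UMIs in all neutrophil barcodes, of which 2 were in Healthy/Tumor Border 1 beside 722 UMIs of Il23a, and the receptor gene Il23r had 2. Ebi3 was the 1 gene of this list of 6 that could be tested, and it was called only at the border of Tumor 2, as lower. Ffar1, Ffar3 and Ffar4, relatives of Ffar2, had 0, 1 and 3 UMIs. Entpd1, which like Entpd3 degrades extracellular nucleotides, was higher in Whole Tumor 2 by 2.28 ± 0.21 (adjusted p = 3.36e-10, edgeR), where Entpd3 was lower, and fell at the border of Tumor 2 by 1.81 ± 0.32 (adjusted p = 0.000265). Of the 7 genes tested of this nucleotide pathway, 1 rose and 3 fell in Whole Tumor 2, among them the ATP receptor P2rx7, by 1.29 ± 0.30 (adjusted p = 0.00107), like Entpd3. At the border of Tumor 2, 3 rose (Nt5e, P2rx4 and P2rx7) and 1 fell. For this list and those below, the shares of all genes called higher and lower were 19.0% and 14.8% in Whole Tumor 2. They were 9.86% and 6.50% at the border of Tumor 1 and 4.15% and 7.45% at that of Tumor 2.

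Of 4 other Siglec family genes tested, 3 rose in Whole Tumor 2 and none fell: Cd22, known from B cells, Siglec1, known from macrophages, and Cd33. Cd33 rose there by 1.35 ± 0.22 (adjusted p = 1.23e-05, edgeR) and fell at the border of Tumor 2 by 1.68 ± 0.34 (adjusted p = 0.0011). Of 4 adaptor and immune receptor genes tested, 3 rose (Lilrb4, Pirb and Tyrobp) and none fell in Whole Tumor 2. At the border of Tumor 1, 2 rose (Fcer1g and Lilrb4). At the border of Tumor 2 Pirb fell by 1.40 ± 0.34 and Tyrobp by 1.23 ± 0.28. Fcer1g, the adaptor through which Tarm1 signals, did not pass between the Whole Tumor arrays (0.42 ± 0.20, adjusted p = 0.103) and rose at the border of Tumor 1 by 0.75 ± 0.26 (adjusted p = 0.0437), called under 8 of 17 settings. Of 3 metabolite receptors tested, Gpr35 and Gpr65 rose and P2ry14, a receptor for nucleotide sugars, fell by 2.78 ± 0.57 in Whole Tumor 2 (adjusted p = 0.000273, edgeR).

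Of 5 other Rab genes tested only Rab44 was called, and it ran against Rab15 between the tumors: it rose in Whole Tumor 2 by 2.46 ± 0.21 (adjusted p = 5.31e-11, edgeR), rose at the border of Tumor 1 by 1.77 ± 0.26 (adjusted p = 6.77e-06) and fell at the border of Tumor 2 by 1.88 ± 0.32 (adjusted p = 0.000144). Of 7 Deltex and Notch genes, Notch1 and Notch2 rose in Whole Tumor 2, Notch2 by 1.87 ± 0.20 (adjusted p = 9.64e-09, edgeR), where Dtx4 was lower. Of 6 calmodulin and calmodulin kinase genes, Camk1d was called between the Whole Tumor arrays, as higher in Tumor 2, and none was called at either border. After barcodes with other classes' markers were left out, the calls of Ebi3, Cd33, Tyrobp, P2rx4 and Rab44 at the border of Tumor 2 did not hold. Nor did those of Fcer1g and Rbpj at the border of Tumor 1, and Siglec1, Cd22 and Hes1 did not pass the filter on low counts.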

How the data were processed

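Processed single-cell UMI tables of 8 Seq-Well libraries were used. The deposited files hold raw counts, UMIs per gene and barcode, which the authors made with bcl2fastq 2.17.1.14, STAR 2.5.2b and mm10 by the Drop-seq protocol. They merged barcodes or UMIs 1 mismatch apart and corrected bead synthesis errors; the gene annotation and use of strand are not given in the sources used here. The study's methods leave out cells under 200 genes, and 449 of the 4343 deposited barcodes had fewer and were left out here.

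Neutrophil barcodes were those with at least 2 UMIs of Csf3r, G0s2, Clec4d and Cxcr2. Their UMIs were summed per library and fitted with edgeR 4.0.16 (R 4.3.3), with TMM scaling, its filter on low counts and the quasi-likelihood test, over all 8 libraries in 4 groups with 4 residual degrees of freedom. Each border is 1 library, which is assumed to vary like the arrays of the other groups, and the contrasts share the Whole Tumor arrays. Genes with a Benjamini-Hochberg adjusted p under 0.05 were called. Level intervals are exact Poisson intervals, ratio and share intervals are exact binomial, all at 95%, and the limit for a count of 0 is 3 UMIs. Co-detection used barcodes thinned to 1000 UMIs. Python 3.11.15, scanpy 1.11.5, numpy 2.4.6 and scipy 1.17.1 were used; Scrublet called 57 of 3894 barcodes (1.46%) doublets.

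The 9 genes and the gene lists were chosen with earlier results of these data known. Named genes were the 9 genes, the 10 genes most and least correlated with their sum, the 5 most alike over classes and list genes that passed the threshold or had the most UMIs. 1 gene among the least correlated, 1 marker class and the driver alleles are not reported here. The scripts were tested on simulated data. Alternatives were RLE scaling, library size alone, DESeq2 1.42.0, no low-count filter, other barcode cuts, no doublet candidates, no Clec4d, no shared barcodes, each array left out and a replicate block.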

Additional observations from a re-analysis of the deposited data

Results flagged for a closer look

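Of the 9 genes, 4 were past the threshold for the difference of the border effect between the tumors, the interaction term of the edgeR quasi-likelihood fit (Tumor 2 minus Tumor 1, log2), 2 of them higher, against 9.90% of the 7688 genes tested, and 2 lower, against 11.8%. The difference was 1.78 for Siglec5 and 2.60 for Ffar2, whose fitted border effects were -0.32 ± 0.29 and -0.10 ± 0.32 in Tumor 1 and 1.46 ± 0.45 and 2.49 ± 0.76 in Tumor 2. It was -1.64 for Tarm1 and -3.56 for Il23a, whose fitted border effects were 1.23 ± 0.25 and 3.22 ± 0.29 in Tumor 1 and -0.41 ± 0.38 and -0.33 ± 0.46 in Tumor 2. The difference of Tarm1 went to 0.10 without barcodes that carried other classes' markers, and it was not called. The difference was then 3.89 for Siglec5, 4.16 for Ffar2 and -1.79 for Il23a, all still called. Dtx4 (2.56) and Rab15 (2.84) were then called higher too. Siglec5 was not called with no filter on low counts or among barcodes with at least 500 genes, and Ffar2 was not called without Whole Tumor 2 replicate 3. Tarm1 was also not called by DESeq2, with library size alone, with no filter on low counts, among barcodes with at least 500 genes or without Clec4d among the markers. The levels of these libraries were used in the choice of the 9 genes, so the term is a description and no test of these genes. Each border is 1 library, and Ffar2 had 5 UMIs in the Whole Tumor 2 arrays and passed the filter on low counts through Tumor 1.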

How the results depend on the processing

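The alternatives moved the counts of called genes more than the members' main directions. At the border of Tumor 1 the 1258 calls became 2168 with library size alone, 653 with DESeq2, 534 without doublet candidates and 447 without Clec4d, with 3 of the 9 genes called by DESeq2 and 2 without Clec4d. At the border of Tumor 2 the 892 calls became 1447, 563, 421 and 573 under the same settings, 576 with no filter on low counts and 480 among barcodes with at least 500 genes, where 1 of the 9 genes was called. For the difference between tumors the 1670 calls became 2908, 1000, 525 and 860, and 2 of the 9 genes were called with no filter and 2 among barcodes with at least 500 genes. Between the Whole Tumor arrays the 2597 calls became 4451 with library size alone.

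Leaving out each array in turn gave 1066 to 1477 calls at the border of Tumor 1 (5 to 5 of the 9 genes), 796 to 972 in Tumor 2 (1 to 4), 1488 to 1829 for the difference (3 to 4) and 1870 to 2459 between the arrays (8 to 8). It gave a median neutrophil log2 ratio of 0.926 to 1.37, a median r of -0.0469 to -0.0198 with Retnlg and of -0.00857 to 0.0314 with Hdc, and 22 to 28 pairs above an odds ratio of 1. Without Clec4d the median r with Retnlg was -0.0549.

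Signs turned mostly for genes that were not called. At the border of Tumor 1 these were Ffar2 (-0.12 to 0.05 with single arrays left out, the latter without Whole Tumor 1 replicate 2) and Dtx4 (-0.04 with library size alone). At the border of Tumor 2 they were Entpd3 (0.31 with library size alone, 0.04 with at least 3 marker UMIs, 1.08 without doublet candidates, 0.58 without Clec4d), Tarm1 (0.08 with library size alone, 0.70 without doublet candidates), Il23a (0.16 and 0.79), Gpr84 (-0.80 without Clec4d) and Camkk1 (0.02 with RLE, 0.38 with library size alone, -0.39 to 0.10 with single arrays left out, the latter without Whole Tumor 2 replicate 1). For the difference they were Entpd3 (0.70 without doublet candidates, 0.05 without Clec4d), Rab15 (-0.62 to 5.48, the former without Whole Tumor 2 replicate 3, the latter without replicate 1) and Tarm1, a called gene (0.10 without doublet candidates). Between the arrays Il23a was at 0.30 with at least 3 marker UMIs, 0.03 with at least 500 genes, 0.22 without Whole Tumor 1 replicate 3 and 0.05 without Whole Tumor 2 replicate 3, with a lowest value of -0.39 without Whole Tumor 1 replicate 2. Causes were not tested.

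The replicate block over the 6 arrays gave 2012 called genes against 2483 with no replicate block, with 8 of the 9 genes in both. Same-numbered arrays had correlations of deviations of 0.016, 0.051 and -0.009, so they share only a number. Depth limits Ffar2 and Rab15 in Whole Tumor 2, with 5 and 3 UMIs.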
